A study of Mus musculus with 2 samples.

Results

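The 42 genes described here encode the sarcomere and the proteins that help build it, and were taken by symbol from a fixed list (42 of the 32285 genes counted). All 42 symbols were found. Single cells had been prepared at E14 from decapitated and eviscerated mouse embryos and sorted on tdTomato (tdT). In these embryos Cre recombinase under the Myf5 promoter switches on a Rosa26 tdT reporter, so the sorted cells have Myf5-expressing ancestors but need not be muscle. The label SRSF2f/f stands for Myf5-Cre, tdT and floxed alleles of Srsf2, a splicing factor, on both chromosomes. The label SRSF2f/w stands for the same Cre and reporter with 1 floxed and 1 wild-type allele, the genotype that served as control. There is 1 library per label, and the number of embryos in each was not given in the sources used here.

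The labels and much of the other evidence disagree. Srsf2 was at 219 CPM (UMIs per 1000000 UMIs of the same cells; 95% Poisson interval 217 to 221) in the library labelled SRSF2f/f and at 153 CPM (151 to 155) in the library labelled SRSF2f/w, and in muscle cells at 251 CPM (247 to 256) and 183 CPM (167 to 201). The lower level thus stood in the library labelled as control. Whether the 3′ reads of Srsf2 fall in the deleted part was not given in the sources used here. The headings over the study's quality summaries, matched by cell number, also give the opposite genotypes. The labels were not corrected here, so libraries are called by their labels throughout, and every difference between them is given without a genotype. With 1 library each no test between them was possible, and all intervals cover counting error only.

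After quality limits, 12523 cells of the library labelled SRSF2f/f and 10345 cells of the library labelled SRSF2f/w were kept, with medians of 10751 and 9480 UMIs (unique molecular identifiers, which count captured RNA molecules). Muscle cells were those with at least 2 UMIs over Pax7, Myf5, Myod1 and Myog. They numbered 2753 (22.0%, 95% Clopper-Pearson interval 21.3 to 22.7) and 140 (1.35%, 1.14 to 1.60), so the library with less Srsf2 also had fewer muscle cells. Like the Srsf2 level and the headings, the names under which the summaries of both libraries were deposited run against the labels. The study also reported a far smaller share of skeletal muscle cells in the mutant than in the control, again opposite to the labels. Cell numbers go with the labels instead: the study retained fewer control than mutant cells, and fewer cells of the library labelled SRSF2f/w were kept here. Non-muscle cells had 0 UMIs of these 4 genes and numbered 8174 and 10006. The remaining 1596 and 199 cells had 1 UMI and entered neither group. The libraries shared 74 barcode sequences, of which none belonged to a muscle cell in both. No doublet caller was run, and 429 (15.6%) and 22 (15.7%) of the muscle cells held at least 3 UMIs of the defining markers of another cell type.

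A sarcomere is the repeating contractile unit of striated muscle. Thin filaments of actin, tropomyosin and troponin are anchored in the Z-disc and slide along thick filaments of myosin, which are held in register at the M-band, while titin spans from one to the other and nebulin runs along the thin filament. Embryonic muscle builds its first sarcomeres from embryonic and cardiac isoforms and later exchanges many of them for adult ones, and myogenin (Myog), a transcription factor of terminal differentiation, marks the cells that enter this programme. The muscle cells were therefore divided by their Myog UMIs, a split that uses none of the 42 genes.

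The share of all UMIs taken by the 42 genes was larger in each higher Myog group. In the library labelled SRSF2f/f it was 0.161% (0.159 to 0.163) in 1121 cells with 0 Myog UMIs, 0.263% (0.260 to 0.266) in 641 cells with 1 to 4, 0.695% (0.688 to 0.701) in 371 cells with 5 to 14, and 1.45% (1.44 to 1.45) in 620 cells with at least 15. In the library labelled SRSF2f/w it was 0.161% (0.153 to 0.170) in 56 cells, 0.656% (0.631 to 0.681) in 24, 0.725% (0.695 to 0.756) in 18 and 1.5% (1.47 to 1.53) in 42. Both libraries thus began and ended at like values, and the second group differed most between them. In the last group of the library labelled SRSF2f/w, 3 of the 42 cells held 35.2% of the member UMIs. Without cells of at least 5% member UMIs the last groups stood at 1.32% (1.32 to 1.33) and 1.13% (1.11 to 1.16). Median depth lay between 13416 and 17384 UMIs per cell in these 8 groups.

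The median cell differed less between the libraries than the sums in the second group. It gave 0.144%, 0.210%, 0.6% and 1.15% of its UMIs to the 42 genes in the library labelled SRSF2f/f and 0.173%, 0.244%, 0.511% and 1.21% in the library labelled SRSF2f/w. Of the 24 cells with 1 to 4 Myog UMIs in the library labelled SRSF2f/w, 3 cells held 66.3% of the member UMIs. The number of members with a UMI per cell, after thinning every cell to 2000 UMIs, had medians of 2.0, 3.0, 5.0 and 9.0 in the library labelled SRSF2f/f and of 2.0, 2.5, 4.5 and 8.0 in the library labelled SRSF2f/w. At full depth a cell with at least 15 Myog UMIs held a median of 16 and 17 members.

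**Figure D1:**
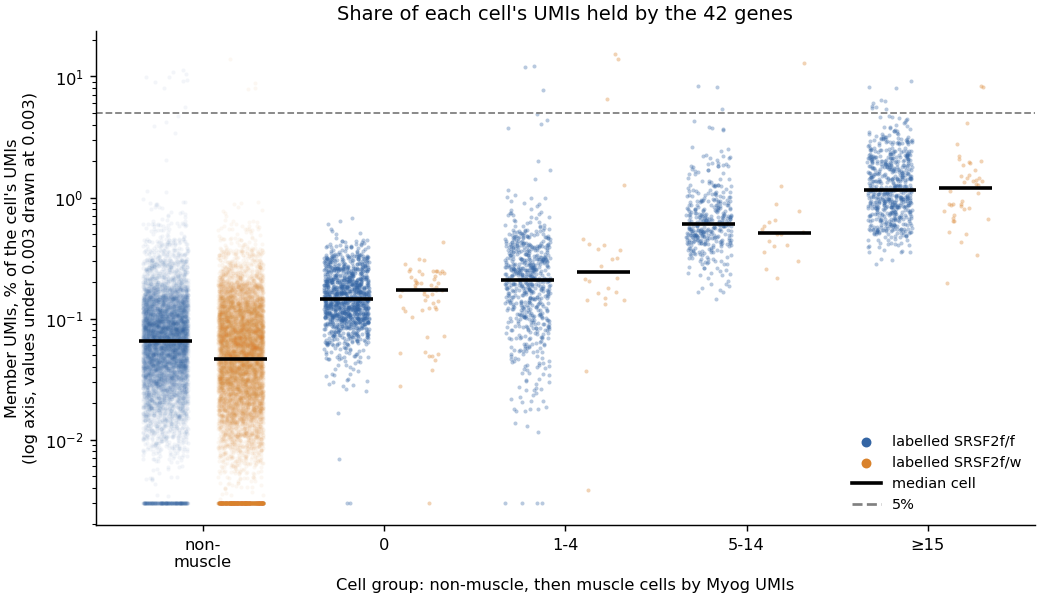
Percent of each cell's UMIs in the 42 genes (log axis, values under 0.003 drawn at 0.003) for non-muscle cells and for muscle cells by Myog UMIs; each point is 1 cell, blue for the library labelled SRSF2f/f and orange for the library labelled SRSF2f/w, black lines are the median cell and the dashed line marks 5%. The medians climb from 0.144% and 0.173% at 0 Myog UMIs to 1.15% and 1.21% at 15 or more, and a few cells stand above 5% in every group but the one with 0 Myog UMIs.

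Across the genes, 24 members had a mean level of at least 20 CPM over the first and last Myog groups of the library labelled SRSF2f/f, and 19 of them were at least 4-fold higher at 15 or more Myog UMIs than at 0. Of all 5208 genes at that level, 2.71% were. In the library labelled SRSF2f/w it was 21 of 24 members against 3.15% of 5143 genes. The median log2 ratio of these members was 4.56 and 5.38, against -0.14 over all genes in both libraries. Most of these members reach the level limit only through the last group, so they had to differ, and the counts serve as a description. Levels in the last group followed a like order in both libraries (Spearman's rho 0.96). This was over 21 members above the limit in both libraries and with UMIs in both groups of each. It is a description across genes of libraries processed together.

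Thin filament genes led the list. Actc1, cardiac alpha-actin and the first alpha-actin of embryonic skeletal muscle, was at 165, 499, 2164 and 3894 CPM from the lowest to the highest Myog group of the library labelled SRSF2f/f and at 69.2, 641, 1605 and 3724 CPM in the library labelled SRSF2f/w. It held 26.9% and 24.8% of all member UMIs in the last group, where every cell of both libraries had at least 1 Actc1 UMI. Acta1, the skeletal alpha-actin of mature fibres, was at 2.65, 32.1, 39.1 and 170 CPM and at 4.26, 547, 231 and 394 CPM. Acta1 was far less evenly spread than Actc1: the 62 highest cells of the 620 in the last group of the library labelled SRSF2f/f held 77.4% of its UMIs but 21.0% of those of Actc1. In the library labelled SRSF2f/w, 3 of 42 cells held 92.0% of the Acta1 UMIs.

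The tropomyosins, which lie along actin and gate myosin binding, behaved unlike each other. Tpm2 was at 219, 311, 825 and 1677 CPM in the library labelled SRSF2f/f and at 206, 532, 676 and 1532 CPM in the library labelled SRSF2f/w. Tpm1 was at 606, 660, 656 and 581 CPM and at 735, 1002, 1002 and 745 CPM, with a log2 ratio of the last over the first group of -0.06 (-0.11 to -0.01) and 0.02 (-0.14 to 0.18). Tpm1 was also the member with the highest level in non-muscle cells, 497 CPM and 490 CPM, and many cell types use it. The 3′ counts used here do not separate its muscle and non-muscle isoforms.

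Among the troponins, which make contraction depend on calcium, Tnnt1 (slow skeletal troponin T) and Tnnt2 (cardiac troponin T, also used by embryonic skeletal muscle) were highest. Tnnt1 was at 264, 388, 930 and 1259 CPM in the library labelled SRSF2f/f and at 259, 566, 817 and 1353 CPM in the library labelled SRSF2f/w, so about 20.9% and 19.1% of its last level was already present at 0 Myog UMIs. Tnnt2 was at 20.3, 56.4, 431 and 1256 CPM and at 10.6, 89.5, 287 and 926 CPM, starting from 1.61% and 1.15% of its last level. The slow troponin I gene Tnni1 stood at 417 and 407 CPM in the last group after 3.48 and 1.06 CPM in the first. The calcium-binding subunits Tnnc1 (slow and cardiac) and Tnnc2 (fast) stood at 180 and 178 CPM in the library labelled SRSF2f/f and at 420 and 340 CPM in the library labelled SRSF2f/w. Their UMIs were concentrated in few cells, with 87.9% and 90.4% of them in the 62 highest cells of the library labelled SRSF2f/f. The fast subunits Tnnt3 and Tnni2 were lower, at 67.1 and 112 CPM and at 169 and 161 CPM.

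The genes of both giant proteins were detected already at 0 Myog UMIs. Ttn (titin) was at 56.0, 163, 538 and 1267 CPM in the library labelled SRSF2f/f and at 51.1, 50.8, 283 and 886 CPM in the library labelled SRSF2f/w. Neb (nebulin, which sets thin filament length) was at 53.5, 78.1, 250 and 567 CPM and at 60.7, 50.8, 178 and 429 CPM. Both were detected in more than 9 of 10 cells of the last group, Ttn in 97.6% of them in both libraries and Neb in 93.5% and 95.2%. These levels are UMIs per 1000000 UMIs and not per length, and a 3′ assay gives about 1 count per captured RNA molecule whatever its length.

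The myosin light chain genes were low at 0 Myog UMIs. Mylpf, the fast regulatory light chain, was at 10.5, 81.6, 214 and 826 CPM in the library labelled SRSF2f/f and at 13.8, 1064, 504 and 1241 CPM in the library labelled SRSF2f/w. At 0 Myog UMIs Mylpf had a UMI in 14.6% of the cells of the former library, where non-muscle cells had more of it (20.2 CPM) and also more Myl1 (8.77 CPM). Myl1, the fast essential light chain, went from 5.35 to 550 CPM and from 4.26 to 632 CPM between the first and last groups. Myl4, the embryonic and atrial essential light chain, went from 14.2 to 253 CPM in the library labelled SRSF2f/f, and from 0 of 939172 UMIs to 339 CPM in the library labelled SRSF2f/w, at least 106-fold against a floor of 3 counts. Without the 2 cells of the last group with at least 5% member UMIs it was at 112 CPM, at least 35.2-fold. Myl2 and Myl3, the light chains of slow and ventricular muscle, were at or under 1.25 CPM in the last group.

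Of the 6 myosin heavy chain genes, whose products are the motor of the thick filament, only the 2 developmental ones had more than 7 CPM in the last group of either library. Myh3, the embryonic heavy chain, was at 1.05, 10.3, 50.3 and 285 CPM in the library labelled SRSF2f/f, a log2 ratio of 8.09 (7.44 to 8.82) between last and first groups. In the library labelled SRSF2f/w it went from 0 UMIs over 4.84 and 19.8 to 257 CPM, at least 80.4-fold (54.2-fold without the same 2 cells). Myh8, the perinatal heavy chain, was at 26.8 and 61.1 CPM and at 12.8 and 79.1 CPM in the first and last groups. Its RNA was thus more abundant than that of Myh3 at 0 Myog UMIs. In the library labelled SRSF2f/w that group held 12 heavy chain UMIs in all. The adult fast genes were low in the last group. Myh1 was at 5.99 and 5.02 CPM (61 and 4 UMIs). Myh4 had 0 and 1 UMIs and Myh2 had 0 UMIs in both, where 3 counts would be 0.295 and 3.76 CPM. Myh7, the slow heavy chain, was at 1.47 and 6.27 CPM. The fast Myh genes lie side by side on chromosome 11, from Myh3 (67078300 to 67102291, GRCm38) to Myh8 (67277124 to 67308634), and are alike in sequence, so low counts of Myh1, Myh2 and Myh4 could include reads of their neighbours.

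The accessory proteins of the thick filament were modest. Mybpc1, the slow myosin-binding protein C, was at 24.8, 23.6, 37.4 and 32.2 CPM in the library labelled SRSF2f/f and at 23.4, 16.9, 29.7 and 60.2 CPM in the library labelled SRSF2f/w. Mybph, which is related to it, went from 0.110 to 14.2 CPM and from 0 UMIs to 36.4 CPM, while the fast Mybpc2 had 0 UMIs in the last group of both. The M-band genes Myom1, Myom3 and Myom2 stood at 31.7, 12.4 and 5.2 CPM and at 33.9, 12.5 and 7.53 CPM in the last group.

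Z-disc genes and desmin covered the whole range. Actn2, alpha-actinin, which crosslinks actin in the Z-disc, went from 1.99 to 52.4 CPM and from 2.13 to 69.0 CPM between the first and last groups, and its fast counterpart Actn3 reached 6.09 and 16.3 CPM. Mypn (myopalladin), which binds alpha-actinin and nebulin, reached 29.2 and 35.1 CPM, and Ldb3 5.40 and 5.02 CPM. Des, the intermediate filament that ties myofibrils together, was at 79.2 and 111 CPM in the first group and at 240 and 267 CPM in the last. Tcap (telethonin, the cap of titin at the Z-disc) had 18 UMIs (1.77 CPM) in the library labelled SRSF2f/f and 43 UMIs (54.0 CPM) in the library labelled SRSF2f/w, and all 43 came from 1 cell.

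Assembly factors were low at 0 Myog UMIs. Klhl41 and its relative Klhl40 stabilise nebulin and thin filament proteins. Klhl41 was at 0.994, 7.82, 84.2 and 263 CPM in the library labelled SRSF2f/f, a log2 ratio of 8.05 (7.38 to 8.80), and at 2.13, 4.84, 36.3 and 182 CPM in the library labelled SRSF2f/w, a ratio of 6.42 (4.54 to 9.48). Unlike Acta1 it was spread widely, with 31.0% of its UMIs in the 62 highest cells and at least 1 UMI in 85.3% of the 620. Klhl40 reached 48.0 and 22.6 CPM. Unc45b, a chaperone for myosin, reached 30.2 and 21.3 CPM, and Smyd1, a methyltransferase needed for thick filament assembly, 42 and 51.4 CPM. Both had been under 3 CPM at 0 Myog UMIs.

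**Figure D2:**
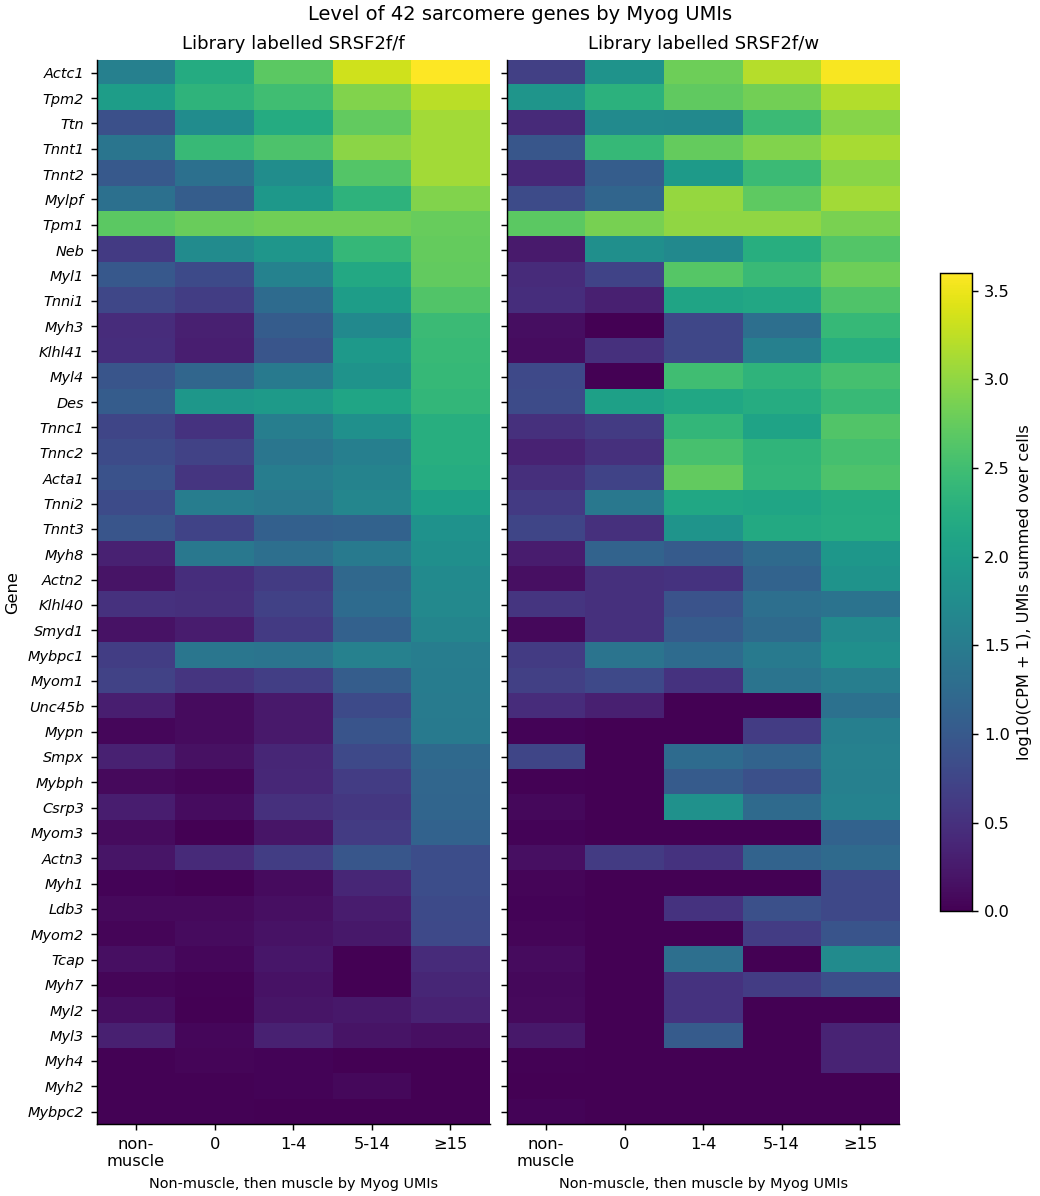
Level of each of the 42 genes as log10(CPM + 1) in non-muscle cells and in muscle cells by Myog UMIs, for the library labelled SRSF2f/f (left) and the library labelled SRSF2f/w (right), with genes ordered by their level at 15 or more Myog UMIs in the former. Actc1 is brightest at 3894 and 3724 CPM, Tpm1 keeps its brightness across all columns, and the second muscle column of the right panel is brighter than that of the left for genes such as Acta1 (547 against 32.1 CPM) and Mylpf (1064 against 81.6 CPM).

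The members differed in how much of their last level was present in the lower Myog groups. At 0 Myog UMIs, 7 of the 24 members above the level limit in the library labelled SRSF2f/f were at 10% or more of their last level, which were Tpm1, Mybpc1, Myh8, Des, Tnni2, Tnnt1 and Tpm2. These and Neb made up the 8 such members in the library labelled SRSF2f/w. The same count was not made over all genes. The level limit, which most members reach only in the last group, favours low shares of the last level, so these counts are a description. The median member stood at 4.25%, 13.3% and 34.6% of its last level in the first 3 groups of the library labelled SRSF2f/f and at 1.56%, 35.3% and 42.3% in the library labelled SRSF2f/w. In the former 20 of 24 members were higher in each group than in the one before (14.2% of 5208 genes), in the latter 11 of 24 (6.32% of 5143), and the level limit, which most reach only in the last group, favours such an order. Other cell types' markers stood out in the second group: 29.0% of its cells in the library labelled SRSF2f/f held at least 3 UMIs of them (20.3% for fibroblast markers), against 11.3%, 9.97% and 12.7% in the other groups, and 29.2% in the library labelled SRSF2f/w. Their part in the levels of that group was not tested. The jump in the second group of the library labelled SRSF2f/w rested on 3 cells with at least 5% member UMIs (a limit chosen after seeing the data), and without them its member share was 0.261% (0.245 to 0.277) beside 0.248% (0.245 to 0.251) in the other library.

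Promoter sequence is shown for 5 members that stand for these behaviours: Klhl41 and Ttn, which were on in most cells of the last group, Actc1 and Acta1, the alike genes of early and mature alpha-actin, and Tpm1, whose level hardly differed with Myog. The 200 bases before the RefSeq start (GRCm38.p6) are given 5′ to 3′ on the gene's strand, and capitals mark a CAGCTG E-box, a MEF2 site or a CArG box. E-boxes are bound by Myog and its relatives, MEF2 sites by MEF2 factors and CArG boxes by serum response factor.

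Klhl41, chr2:69669920-69670119, plus strand: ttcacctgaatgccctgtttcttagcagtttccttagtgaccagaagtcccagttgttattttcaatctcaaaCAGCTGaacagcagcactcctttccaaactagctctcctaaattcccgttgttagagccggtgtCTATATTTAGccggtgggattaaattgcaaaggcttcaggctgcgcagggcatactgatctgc
Ttn, chr2:76982548-76982747, minus strand: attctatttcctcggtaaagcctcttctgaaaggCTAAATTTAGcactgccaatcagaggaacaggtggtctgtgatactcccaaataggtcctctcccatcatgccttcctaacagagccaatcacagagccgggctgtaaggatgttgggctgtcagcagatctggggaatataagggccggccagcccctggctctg
Actc1, chr2:114052876-114053075, minus strand: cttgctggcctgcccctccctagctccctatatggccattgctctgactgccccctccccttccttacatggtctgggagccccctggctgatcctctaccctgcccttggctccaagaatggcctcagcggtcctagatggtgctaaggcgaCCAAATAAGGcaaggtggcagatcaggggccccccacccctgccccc
Acta1, chr8:123894776-123894975, minus strand: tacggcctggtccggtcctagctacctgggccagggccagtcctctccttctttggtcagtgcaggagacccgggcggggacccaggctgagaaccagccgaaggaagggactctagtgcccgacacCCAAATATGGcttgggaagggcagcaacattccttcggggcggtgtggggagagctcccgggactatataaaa
Tpm1, chr9:67049214-67049413, minus strand: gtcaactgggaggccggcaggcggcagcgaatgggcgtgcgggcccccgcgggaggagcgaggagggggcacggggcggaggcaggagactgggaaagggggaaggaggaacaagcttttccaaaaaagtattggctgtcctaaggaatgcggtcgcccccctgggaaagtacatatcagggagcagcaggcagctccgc

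Klhl41 held 1 CAGCTG and 1 MEF2 site, Ttn 1 MEF2 site, both actins 1 CArG box each, and Tpm1 none of these. The general E-box CANNTG, not marked as such, had 3 matches in Klhl41, 1 each in Ttn and Tpm1, and 0 in both actins. RefSeq promoters were at hand for 36 of the 42 members. On either strand, CAGCTG was found in 10 of these genes (27.8%) and in 10.9% of 32544 promoter windows of the same length, CANNTG (which includes CAGCTG) in 26 (72.2%) and 58.2%, the MEF2 site in 5 (13.9%) and 1.35%, and the CArG box in 6 (16.7%) and 1.19%. Counted by window, since some genes have 2, the 42 member windows held them in 26.2%, 73.8%, 11.9% and 16.7%. A match is a description of these letters and was not tested against binding, and several genes have more than 1 start.

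Isoform use within families was followed along the same groups. Myh3 made up 3.73% (2.26 to 5.77), 33.6% (28.5 to 39.1), 62.2% (57.5 to 66.7) and 80.6% (79.3 to 81.9) of the UMIs of the 6 heavy chain genes in the library labelled SRSF2f/f, and 73.7% (68.2 to 78.8) in the last group of the library labelled SRSF2f/w. Tnnt2 made up 7.03% (6.35 to 7.76), 12.4% (11.4 to 13.3), 31.4% (30.4 to 32.4) and 48.6% (48.0 to 49.2) of the UMIs of Tnnt1, Tnnt2 and Tnnt3 in the library labelled SRSF2f/f, and 3.92% (1.90 to 7.09), 12.3% (8.80 to 16.5), 22.8% (18.7 to 27.4) and 37.8% (35.7 to 40.0) in the library labelled SRSF2f/w. The Tnnt2 share was thus higher in each higher Myog group of both libraries, and so was the Myh3 share in the library labelled SRSF2f/f.

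The Myl4 share of Myl1, Myl3 and Myl4 went the other way in the library labelled SRSF2f/f, at 72.1% (67.1 to 76.7), 43.1% (39.5 to 46.9), 32.1% (29.5 to 34.8) and 31.5% (30.5 to 32.5). Acta1 and the fast troponins showed no steady order along the Myog groups of that library, at 1.58%, 6.05%, 1.77% and 4.19% and at 13.1%, 12.9%, 7.80% and 16.1%. Acta1 made up 4.19% (4.0 to 4.38) of the alpha-actin UMIs in the last group of the library labelled SRSF2f/f and 9.57% (8.58 to 10.6) in the library labelled SRSF2f/w. Fast troponins made up 16.1% (15.6 to 16.6) and 23.5% (21.8 to 25.3) of fast and slow troponin UMIs. Leaving out the cells with at least 5% member UMIs turned both differences around. Acta1 was then at 2.89% (2.73 to 3.06) and 1.11% (0.752 to 1.59), and the fast troponins at 12.1% (11.7 to 12.6) and 9.02% (7.56 to 10.7). The cells left out were chosen by these same genes, with a limit set after seeing the data. They were rich in Acta1 and fast troponins. They made up 4.29% of muscle cells in the library labelled SRSF2f/w and 0.581% in the other. Leaving them out favours such a turn, so the shares without them are a description. Myl4, with 34.8% (31.5 to 38.3) in the last group of the library labelled SRSF2f/w, was at 28.5% (27.4 to 29.6) and 22.1% (18.1 to 26.6) without those cells. Leaving those cells out moved the Tnnt2 share little, to 48.7% and 40.0%.

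**Figure D3:**
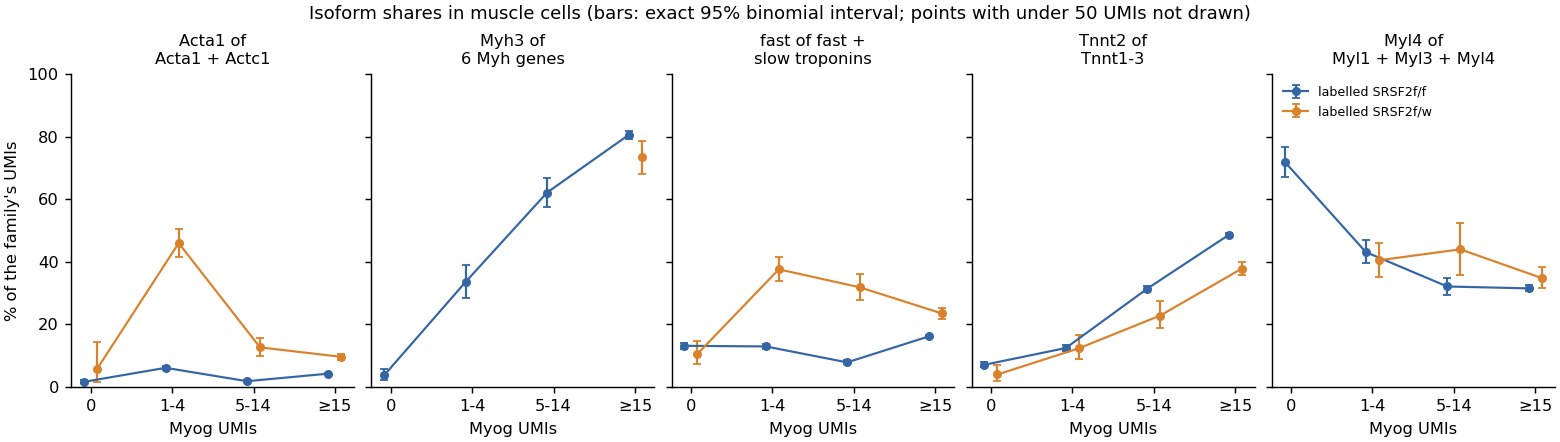
Percent of a family's UMIs held by the named isoform in muscle cells by Myog UMIs, blue for the library labelled SRSF2f/f and orange for the library labelled SRSF2f/w, with exact 95% binomial intervals for counting error; points resting on fewer than 50 UMIs are not drawn. Myh3 and Tnnt2 climb to 80.6% and 48.6% in blue, and the orange Acta1 and fast troponin shares peak at 46.0% and 37.6% in the second group, where 3 cells hold most UMIs.

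Between the libraries, muscle cells as a whole gave 0.548% (0.546 to 0.550) of their UMIs to the 42 genes in the library labelled SRSF2f/f and 0.749% (0.739 to 0.760) in the library labelled SRSF2f/w. Of 22 members above the level limit, 7 were at least 2-fold higher in the library labelled SRSF2f/w, against 0.746% of 5228 genes, and 0 were at least 2-fold lower, against 0.287%. The 7 were Acta1, Tnnt3, Tnnc2, Tnnc1, Mylpf, Myl4 and Myl1, with log2 ratios from 2.25 (2.12 to 2.38) to 1.02 (0.91 to 1.13). These directions would be read the other way by the genotypes in those headings, and 6 cells held 31.6% of the member UMIs in the library labelled SRSF2f/w. Without the 6 and 16 muscle cells that had at least 5% member UMIs, 0 of 20 members were at least 2-fold higher (0.517% of 5227 genes) or lower (0.287%). The member shares were then 0.525% (0.516 to 0.534) and 0.510% (0.507 to 0.512), and the median log2 ratio of the members was -0.04 in place of 0.43. The cells left out were chosen by these same genes, so the values without them are a description.

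Among the cells with at least 15 Myog UMIs, ratios lay on both sides of 0. Myog itself was at 1501 (1477 to 1525) CPM in these cells of the library labelled SRSF2f/f and at 1631 (1544 to 1722) CPM in the other. The part of Myog level in the ratios was not tested. With Myog groups scaled per 10000 UMIs, the median log2 ratio of the members was -0.02 in place of 0.29. Of 31 members above the level limit, 7 were at least 2-fold higher in the library labelled SRSF2f/w (1.78% of 4997 genes) and 1 was at least 2-fold lower (0.720%). The 5 highest log2 ratios were those of Tcap (4.93, 4.11 to 5.81), Csrp3 (1.5, 0.89 to 2.07), Mybph (1.35, 0.73 to 1.94), Tnnt3 (1.34, 1.06 to 1.61) and Smpx (1.23, 0.61 to 1.79). Tcap, Csrp3, Mybph and Smpx were above 20 CPM only in the library labelled SRSF2f/w (1.77, 13.7, 14.2 and 16.1 CPM in the other), so they had to be higher there to be counted. Csrp3 is a LIM protein of the Z-disc and Smpx a small protein of the costamere. Acta1 followed at 1.21 (1.03 to 1.39) and Tnnc1 at 1.22 (1.05 to 1.39). The 5 lowest were Klhl40 (-1.09, -1.85 to -0.41), Klhl41 (-0.53, -0.78 to -0.29), Ttn (-0.52, -0.63 to -0.41), Unc45b (-0.50, -1.30 to 0.20) and Tnnt2 (-0.44, -0.55 to -0.33).

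Cells with at least 5% member UMIs made up 4.29% (1.59 to 9.09) of muscle cells in the library labelled SRSF2f/w and 0.581% (0.333 to 0.942) in the library labelled SRSF2f/f. They were chosen by the same genes and are commoner in the former, so leaving them out lowered 29 of 30 ratios, and the signs without them are a description and no result. Leaving out the 2 cells of the library labelled SRSF2f/w and the 10 of the other with at least 5% member UMIs, the ratio of 10 members went from above 0 to below it. Acta1 went to -1.51 (-2.08 to -0.99), Tnnc2 from 0.94 to -0.63 (-1.08 to -0.22) and Myl4 from 0.42 to -0.76 (-1.10 to -0.45), and Tcap was left with 0 and 10 UMIs. In contrast Ttn stayed at -0.55 (-0.67 to -0.43), Tnnt2 at -0.52 (-0.64 to -0.41), Klhl41 at -0.57 (-0.83 to -0.32), Klhl40 at -1.22 (-2.10 to -0.46) and Neb at -0.52 (-0.69 to -0.34). Tnnc1 stayed above 0, at 0.64 (0.36 to 0.92). The median over members was 0.29 with these cells and -0.26 without them, beside 0.01 and 0.02 over all genes. Without them 0 of 27 members were at least 2-fold higher (1.70% of 5003 genes). At least 2-fold lower were 2, Acta1 and Klhl40 (0.899% of 5003 genes). In the 17 and 368 cells with 5 to 14 Myog UMIs that remained, 6 of 17 members were at least 2-fold lower (4.0% of 5050 genes), with a median of -0.77 and member shares of 0.480% (0.456 to 0.506) in the library labelled SRSF2f/w and 0.673% (0.666 to 0.680) in the other. The 6 were Myl1, Myl4, Mylpf, Myh3, Tnni2 and Klhl41, each on 14 or fewer UMIs in the library labelled SRSF2f/w.

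**Figure D4:**
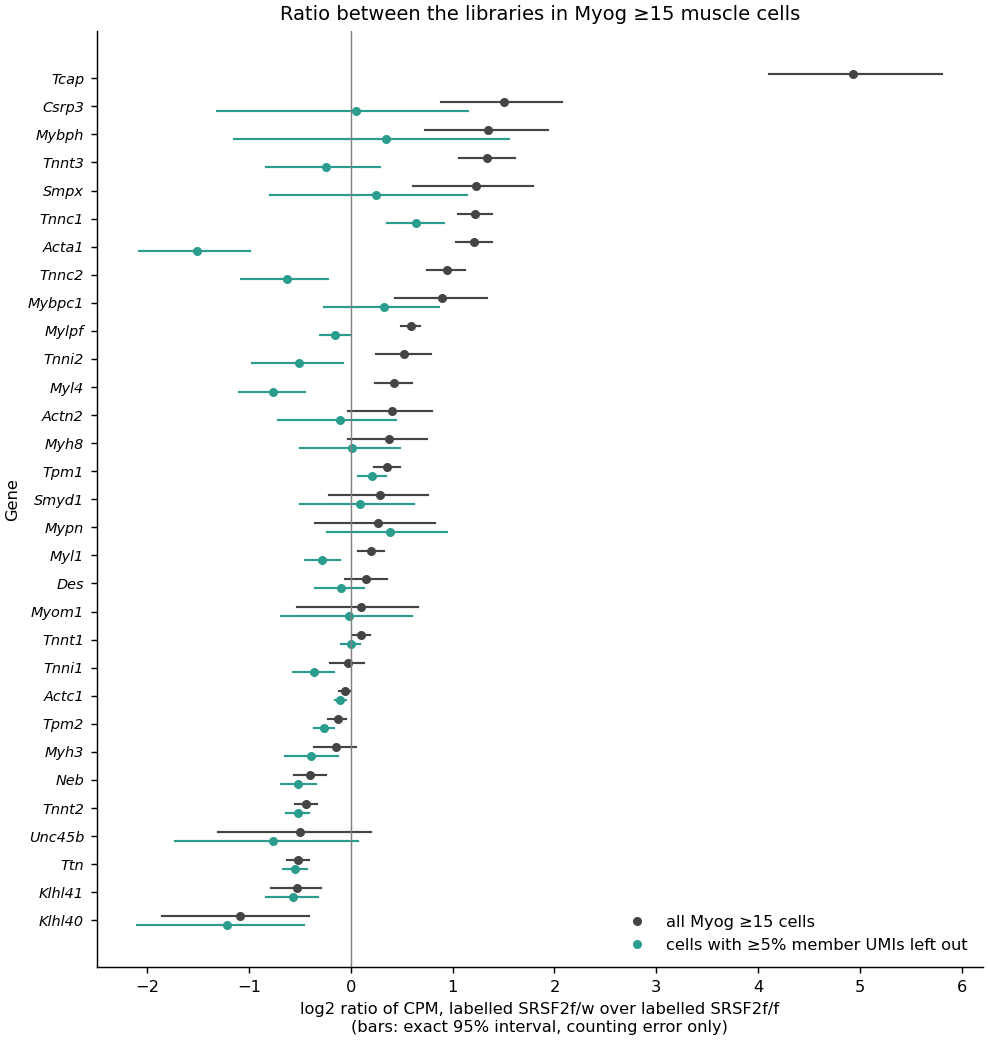
Log2 ratio of CPM in muscle cells with at least 15 Myog UMIs, library labelled SRSF2f/w over library labelled SRSF2f/f, for the 31 members above the level limit, with exact 95% intervals for counting error; grey uses all 620 and 42 cells and green leaves out those with at least 5% member UMIs. Acta1 moves from 1.21 to -1.51, while Ttn (-0.52 and -0.55) and Klhl41 (-0.53 and -0.57) hardly move; Tcap has no green point because it was left with 0 UMIs in 1 library.

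The share of cells with a UMI, which few cells cannot dominate, was compared after thinning to 2000 UMIs in cells with at least 15 Myog UMIs. Acta1 was detected in 14.5% (11.8 to 17.5) and 14.3% (5.43 to 28.5) of cells although its summed level differed 2.31-fold. Actc1 was detected in 98.7% (97.5 to 99.4) and 95.2% (83.8 to 99.4), Mylpf in 46.0% (42 to 50) and 54.8% (38.7 to 70.2), and Myh3 in 25.6% (22.3 to 29.3) and 21.4% (10.3 to 36.8). Among members of lower level, Klhl40 was seen in 46 of 620 cells (7.42%, 5.48 to 9.77) and 1 of 42 (2.38%, 0.0603 to 12.6), Unc45b in 5.97% (4.24 to 8.13) and 2.38% (0.0603 to 12.6), and Smpx in 3.06% (1.85 to 4.74) and 9.52% (2.66 to 22.6). With 42 cells these intervals are wide, and smaller differences were not detectable at this depth. Unthinned, Acta1 was seen in 40.0% and 35.7% of the cells.

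The cells with at least 5% member UMIs held larger shares of Acta1 and of fast troponins than any Myog group of their library. Among kept cells they numbered 33 in the library labelled SRSF2f/f and 13 in the library labelled SRSF2f/w, of which 16 and 6 were muscle cells by the rule. They were defined by the 42 genes, so the values that follow describe them without a test. Their Acta1 level was 3651 and 10588 CPM, their Mylpf level 11952 and 19865 CPM and their Tnnc2 level 4238 and 8447 CPM. Acta1 made up 31.7% (30.1 to 33.2) and 54.1% (51.5 to 56.7) of their alpha-actin UMIs, and fast troponins 41.8% (40.5 to 43.2) and 53.7% (51.5 to 55.8) of their troponin UMIs. High shares were not particular to them. Over all non-muscle cells, which include 10 and 4 of these cells, Acta1 made up 16.4% and 35.2%. Fast troponins made up 36.2% and 42.3% there. The embryonic Myh3 made up 83.3% (80.6 to 85.8) and 69.0% (59.7 to 77.2) of heavy chain UMIs, beside 80.6% and 73.7% in the last Myog group. Myl4 made up 42.2% and 40.0% of its family, beside 31.5% and 34.8%, and Tnnt2 40.4% and 23.3%, beside 48.6% and 37.8%. Actc1 was seen in all 46, and Acta1 in 32 and 13. Ckm, muscle creatine kinase, which was not used to choose them, had a UMI in 57.6% and 61.5% of these cells and in 2.47% and 5.00% of all muscle cells.

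Muscle cells were compared with non-muscle cells of the same library. Of 18 members above the level limit in the library labelled SRSF2f/f, 17 were at least 4-fold higher in muscle than in non-muscle cells, beside 1.31% of 5649 genes, and 18 of 19 in the library labelled SRSF2f/w, beside 1.56% of 5522 genes. Tpm1 was the remaining member in both. As in the Myog comparison, most of these members reach the level limit only through muscle cells and had to differ (Acta1 52.7 against 7.11 CPM in the library labelled SRSF2f/f). In non-muscle cells with fewer than 5% member UMIs, grouped by their defining markers, Tpm1 and Tpm2 were highest in pericyte or smooth muscle cells, at 1215 (1156 to 1277) and 650 (606 to 696) CPM in the library labelled SRSF2f/f and at 1241 (1174 to 1312) and 526 (482 to 572) CPM in the library labelled SRSF2f/w. Des was also highest there, at 41.4 (31.0 to 54.2) and 31.4 (21.5 to 44.3) CPM.

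Several members, singled out after their values were seen, stood higher in 1 non-muscle cell type than in fibroblasts. Only Smpx among them exceeded its level in the last muscle group. Smpx was at 35 (26.3 to 45.6) and 55.6 (50.9 to 60.6) CPM in immune cells and under 1 CPM in endothelial cells, chondrocytes and fibroblasts, beside 16.1 and 37.6 CPM in muscle cells with at least 15 Myog UMIs. Unc45b was at 10.8 (8.18 to 13.9) and 9.18 (7.85 to 10.7) CPM in endothelial cells and at 0.316 and 0.431 CPM in fibroblasts. Tnnt3 was at 16.4 (14.8 to 18.2) and 13.8 (12.5 to 15.3) CPM in chondrocytes and at 3.29 and 2.59 CPM in fibroblasts. Klhl40 was at 3.49 (2.77 to 4.34) and 5.57 (4.72 to 6.53) CPM in chondrocytes, and at 0.776 (0.0196 to 4.32) and 5.56 (2.24 to 11.5) CPM in Schwann cells. Myom1 was highest in pericyte or smooth muscle cells, at 13.3 (7.74 to 21.3) and 17.7 (10.5 to 27.9) CPM.

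Actc1 instead was present in nearly all non-muscle groups at levels that differed by library. It was at 25 CPM in chondrocytes, 26.9 in endothelial cells, 33.5 in fibroblasts, 23.3 in immune and 29.0 in erythroid cells of the library labelled SRSF2f/f, and at 2.40, 3.01, 4.15, 2.04 and 1.0 CPM in the same groups of the library labelled SRSF2f/w. Over all non-muscle cells 25 of 42 members had an interval wholly lower in the library labelled SRSF2f/w, as did 27.2% of 21166 genes, and 2, Smpx and Unc45b, had one wholly higher, as did 25.2%. Cell types were present in unlike numbers: immune cells, where Smpx was highest, numbered 97 and 571, and endothelial cells, where Unc45b was highest, 341 and 982. Within those types Smpx was at 35 and 55.6 CPM and Unc45b at 10.8 and 9.18 CPM. The part of cell numbers in the pooled values was not tested. Muscle cells held 29.2% of all UMIs in the library labelled SRSF2f/f and 2.0% in the other, which moves with the low Actc1 levels. Free RNA in droplets is known to give such counts, though its part was not tested. Actc1 was detected at 2000 UMIs in 8.04% and 0.863% of non-muscle cells (median full depth 9352.5 and 9385.5 UMIs), against 21.9% and 12.5% of muscle cells with 0 Myog UMIs. Both muscle shares stood above the non-muscle share of their own library.

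**Figure D5:**
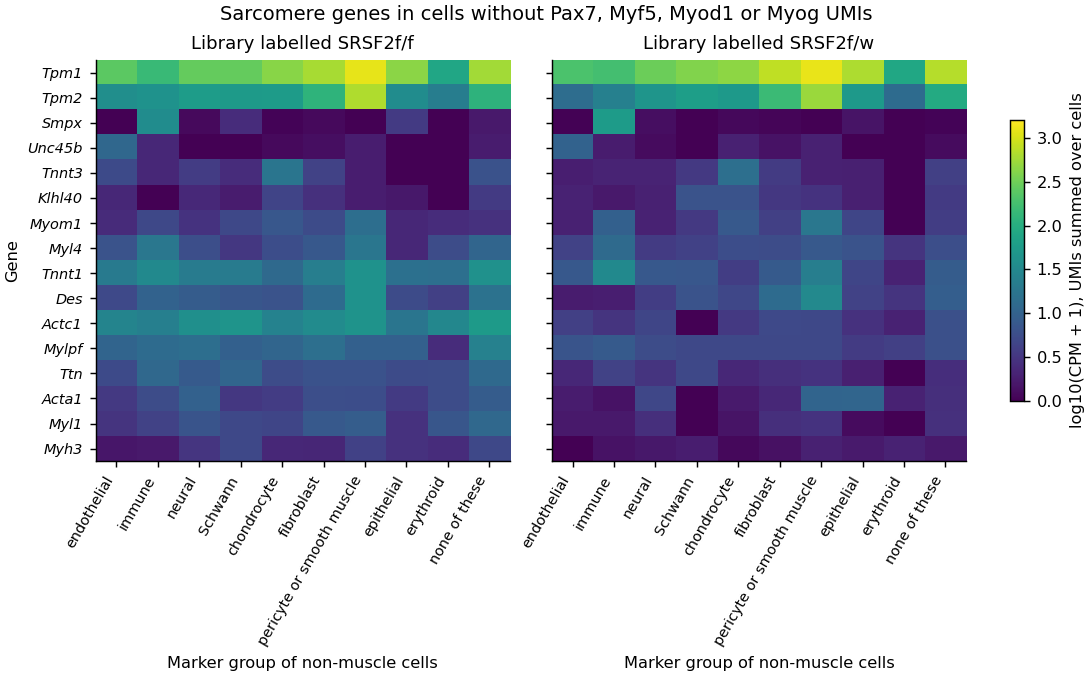
Level as log10(CPM + 1) of 16 of the genes, chosen after their values were seen, in non-muscle cells grouped by defining markers, for the library labelled SRSF2f/f (left) and SRSF2f/w (right). Tpm1 is bright in every group, Smpx stands out in immune cells (35 and 55.6 CPM) and Unc45b in endothelial cells (10.8 and 9.18 CPM), and the Actc1 row is brighter on the left in every group (33.5 against 4.15 CPM in fibroblasts).

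Further genes of the sarcomere, from a list of 34 outside the 42, gave 8 above the level limit in each library. Of these 3 were at least 4-fold higher at 15 or more Myog UMIs than at 0 in both libraries, beside 2.71% and 3.15% of all genes at that level. They were Synpo2l, a Z-disc protein (log2 ratio 3.69 and 3.65), the small heat shock protein Cryab (2.98 and 2.91), and Lmod3, which nucleates actin filaments and is stabilised by Klhl40 (7.01, and 48 against 0 UMIs). Synpo2l and Lmod3 were above 20 CPM only in the last group, which favours such a difference. Tpm4, a cytoskeletal tropomyosin, was lower, at -1.11 (-1.18 to -1.03) and -1.06 (-1.37 to -0.76). Between the libraries 0 of 7 listed genes above the limit in muscle cells differed by 2-fold, beside 0.746% of all genes higher and 0.287% lower. Genes of heart muscle were all under 2 CPM in muscle cells: Myl7 had 0 UMIs in both libraries, Mybpc3 1 and 0, Nppa 5 and 0, Ryr2 11 and 1, Myh6 12 and 2, and Tnni3 53 and 4, which is 1.2 and 1.63 CPM beside 0.863 and 0.784 CPM in non-muscle cells.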

How the data were processed

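The authors sequenced 10x Genomics 3′ libraries of sorted tdT+ cells, mapped reads to mm10 and counted UMIs with Cell Ranger (5.0.0 in the methods and matrix header, 3.1.0 in the processing notes), then aggregated the libraries after down-sampling reads. The deposited values are raw UMI counts per gene and barcode, 156093779 and 128116615 in all. Barcode suffixes were assigned by the cell numbers of the authors' summaries.

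Cells within 2 SD of the mean log10 UMIs and genes and with at most 10% mitochondrial UMIs were kept. UMIs were summed per library and group and scaled to CPM, with exact Poisson, Clopper-Pearson and conditional binomial intervals (95%), a floor of 3 counts and a level limit of 20 CPM (mean of both sums). Calculations used Python 3.11.15 with NumPy and SciPy, and were tested on simulated data. Of the 42 genes, 17 overlap a counted gene on the opposite strand and 0 on the same strand. Coordinates come from GENCODE vM21 (GRCm38), promoters from RefSeq. Values are given for the 8 highest members, the 5 highest and lowest library ratios, and the isoform families. Members and lists were chosen with earlier results of these data known. Alternatives were other cell limits, muscle rules, Myog groups scaled per 10000 UMIs, thinning to 2000 UMIs, other totals, no level limit, and leaving out cells with other types' markers or, added after seeing the data, with at least 5% member UMIs. No doublet caller was run.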

Additional observations from a re-analysis of the deposited data

Results flagged for a closer look

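Cells outside the muscle rule carried a strong sarcomere signal: 17 cells of the library labelled SRSF2f/f and 7 of the library labelled SRSF2f/w had at least 5% of their UMIs in the 42 genes with at most 1 UMI of Pax7, Myf5, Myod1 and Myog. They were shallow, with medians of 2241 and 952 UMIs, and held 0.949% and 0.594% mitochondrial UMIs at the median. Ckm was found in 11 and 3 of them, and none held 3 UMIs of another cell type's defining markers. Among them, 10 and 4 had 0 UMIs of the 4 genes and held 3.18% and 0.780% of the member UMIs of all non-muscle cells. They were left out where non-muscle cells are grouped by markers and remained in the other non-muscle values.

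Tpm1 had log2 ratios of opposite sign between cells with at least 15 and with 0 Myog UMIs, -0.06 in the library labelled SRSF2f/f and 0.02 in the library labelled SRSF2f/w. The difference between the libraries was not tested, and the interval of the second ratio, -0.14 to 0.18, holds the first.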

How the results depend on the processing

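With 1 library per label there were no replicates to leave out. No paired analysis was possible because each label has 1 library and no test was made. Over all results and alternatives, 131 values stayed close to the reported one, 43 moved and 2 changed sign. Values are given for the library labelled SRSF2f/f before the library labelled SRSF2f/w, and the cause of each move was not tested.

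The share of muscle UMIs in the 42 genes (0.548% and 0.749%) was 0.591% and 0.762% with at least 3 UMIs of the muscle genes, 0.663% and 0.780% with at least 5, 0.575% and 0.851% after thinning, 0.836% and 1.13% of a total without mitochondrial, haemoglobin and ribosomal protein genes, 0.610% and 0.886% without cells bearing other types' markers, and 0.510% and 0.525% without cells of at least 5% member UMIs. In the former library it was 0.489% with a mitochondrial limit of 5% and 0.551% of a total without the members. With no level limit, more genes entered: 32 members passed 4-fold between Myog groups in the library labelled SRSF2f/f, 32 and 36 between muscle and non-muscle cells, and 14 passed 2-fold between the libraries. That last count was 4 with at least 5 muscle UMIs and 0 without member-rich cells (0.517% of 5227 genes). The counts with no level limit or with at least 5 muscle UMIs were not made over all genes, so they are a description. The median library ratio at 15 or more Myog UMIs (0.29) was -0.02 with Myog groups per 10000 UMIs and -0.26 without member-rich cells.

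Among isoform shares at 15 or more Myog UMIs, leaving out member-rich cells gave 2.89% and 1.11% for Acta1, 12.1% and 9.02% for fast troponins and 28.5% and 22.1% for Myl4. Myog groups per 10000 UMIs gave fast troponins 15.4% and 21.3% and Tnnt2 50.9% and 42.1%, and in the library labelled SRSF2f/w Acta1 5.63%, Myh3 78.9% and Myl4 28.5%. Thinning gave Acta1 3.93%, Myh3 84.2%, fast troponins 13.6% and Tnnt2 49.9% in the library labelled SRSF2f/f, and Myl4 28.9% in the other. A mitochondrial limit of 5% gave Tnnt2 49.3% and Myl4 33.4% in the former, and Acta1 12.5% and fast troponins 26.6% in the latter, where no cell limits gave fast troponins 25.4%.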

Other observations

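Cdkn1a, a cell cycle inhibitor that is not a member, also stood higher in each Myog group than in the one before, at 66.4, 121, 295 and 660 CPM in the library labelled SRSF2f/f and at 116, 140, 194 and 621 CPM in the library labelled SRSF2f/w. In the latter the first 3 groups had intervals of 95.3 to 140, 107 to 181 and 148 to 251, and neighbours overlapped. There 3 cells held 51.4%, 62.1% and 64.4% of the Cdkn1a UMIs. Non-muscle cells were at 202 and 273 CPM. Pax7, which marks progenitors, went the other way, from 149 to 13.1 CPM and from 124 to 3.76 CPM. Pax7 belongs to the muscle rule, and cells without Myog UMIs entered only through Pax7, Myf5 or Myod1. That choice of cells favours high Pax7 in the lowest Myog group, so the Pax7 values are a description. The acetylcholine receptor gene Chrna1 went from 3.64 to 208 CPM and from 9.58 to 267 CPM.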
